A study of Mus musculus with 18 samples.

Results

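Endothelin and related vasoactive peptide genes were followed in mouse embryonic fibroblasts through the ligand genes Edn1, Adm and Uts2b, the processing enzyme gene Ece1 and the receptor genes Ednra and Ednrb. These 6 genes were listed by symbol and chosen by their measured values, since Edn1 had the largest fall on TPA treatment and Uts2b had a higher signal in the knockout. The TPA responses of Edn1 and the genotype differences of Uts2b therefore chose the genes and are given as description, with no test. Probes were found by the gene symbols of the platform annotation. Of the 6 genes, 5 had a named probe, and 4 (Edn1, Adm, Ece1 and Uts2b) passed the filter on dim probes, out of 10902 genes tested on the whole array. Ednra had no probe with its symbol and was not analysed here. The lists of related genes used below were also drawn up with earlier results of these data known.

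The cells were primary male C57BL/6 fibroblasts, taken at embryonic day 13.5 from littermates and grown with 10% fetal bovine serum. Cells labelled as DUSP5 knockout (KO), which should lack a nuclear phosphatase of the kinase ERK, were compared with wild-type cells (WT). Both were measured untreated (0 h) and after 1 h and 3 h of 100 ng/ml TPA, a phorbol ester that activates protein kinase C, with 3 arrays in each of the 6 groups. There was no solvent-only group, so TPA, handling and time in culture cannot be told apart, and the labels do not say whether the 3 arrays of a group came from separate embryos or cultures. Every p-value here rests on the variation among these arrays alone, and part of it may be technical.

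Between 16675 and 18348 of 45281 probes were detected per array, and the normalized values of arrays of one group correlated at 0.991 to 0.996. Mean unnormalized signal at 1 h was 235.7 to 258.6 in KO and 277.5 to 286.3 in WT arrays. The signal of Dusp5 in KO cells was 54.1% of WT at 0 h, 51.1% at 1 h and 63.5% at 3 h, so its probe still gave signal in the KO. Fibroblast markers were detected in 12 to 14 of the 14 genes with a probe on every array, with Vim, Col5a1 and Thy1 on all 18, Lum on 12 and Postn on 5. Of 15 endothelial markers 5 to 8 were detected per array. Flt1, Emcn and Egfl7 were detected on all 18 arrays, Ptprb on 16, Esam on 15, Kdr on 14 and Tek on 7. Tie1, Vwf, Cldn5 and Sox17 were detected on 0 arrays, and Pecam1, Cdh5, Erg and Sox18 on 1 array each. The summed signal of the endothelial list was 1250 to 1343 in KO and 1333 to 1407 in WT cells at 0 h, 1315 to 1516 and 1363 to 1459 at 1 h, and 1360 to 1540 and 1437 to 1612 at 3 h. Macrophage and blood markers were detected in 4 or 5 of 7 genes per array, with Csf1r, Adgre1, Lyz2 and Cd14 on all 18 arrays and Ptprc and Hba-a1 on 0, and neural crest, melanocyte and glial markers in 0 to 2 of 8. In bulk RNA, fewer cells of a type and less RNA per cell cannot be told apart.

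Endothelin-1, the product of Edn1, is a secreted peptide that constricts blood vessels and drives proliferation and matrix production in mesenchymal cells. It is cut from a larger precursor by furin-type proteases and then by the membrane metalloprotease ECE1, and it acts on the G protein-coupled receptors encoded by Ednra and Ednrb. Adrenomedullin (Adm) is a vasodilator whose receptor is the calcitonin receptor-like receptor (Calcrl) paired with a RAMP accessory protein, and Adm is a well-known hypoxia-inducible gene. Uts2b encodes urotensin-related peptide, a ligand of the urotensin receptor (Uts2r).

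The promoters of the 3 ligand genes are shown because these genes carry the differences described below. Each run holds the 250 bases before the gene's start in RefSeq, on the gene's own strand, in the mouse build GRCm38.p6. Both strands were searched for TGANTCA (AP-1, the transcription factor that phorbol esters are best known to activate), GGAATG (TEAD), GATAA (GATA factors), and ACGTG and GCGTG (hypoxia response element). The capitals mark every match, and no match overlapped another.
Edn1, chr13:42301226-42301475, plus strand: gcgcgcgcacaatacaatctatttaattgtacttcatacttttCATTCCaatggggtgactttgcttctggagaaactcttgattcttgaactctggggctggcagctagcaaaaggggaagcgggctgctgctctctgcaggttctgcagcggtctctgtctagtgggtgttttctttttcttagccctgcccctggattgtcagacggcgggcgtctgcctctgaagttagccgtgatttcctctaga
Adm, chr7:110627407-110627656, plus strand: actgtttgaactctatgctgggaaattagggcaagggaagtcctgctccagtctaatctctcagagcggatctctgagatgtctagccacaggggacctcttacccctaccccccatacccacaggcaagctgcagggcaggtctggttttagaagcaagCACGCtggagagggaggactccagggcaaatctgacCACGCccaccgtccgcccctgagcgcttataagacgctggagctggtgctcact
Uts2b, chr16:27370240-27370489, minus strand: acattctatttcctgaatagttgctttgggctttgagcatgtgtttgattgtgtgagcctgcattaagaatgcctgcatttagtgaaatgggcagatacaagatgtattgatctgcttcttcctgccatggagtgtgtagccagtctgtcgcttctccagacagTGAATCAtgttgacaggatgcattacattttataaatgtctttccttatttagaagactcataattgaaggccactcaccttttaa
The Edn1 window held 1 GGAATG, read on the opposite strand, 207 bases before the start. The Adm window held 2 GCGTG, also on the opposite strand, 90 and 54 bases before the start. The Uts2b window held 1 TGANTCA on the gene's strand, 86 bases before the start. Over 32851 windows of this length in RefSeq, TGANTCA occurred in 6.75%, GGAATG in 12.6%, GATAA in 22.6%, ACGTG in 16.6% and GCGTG in 28.2%. A match is a string of letters and does not show that a factor binds there.

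Edn1 (chr13:42301476-42307990 in GRCm38.p6) had a clear signal in untreated cells of both genotypes and lay close to the detection limit after 3 h of TPA. On the normalized log2 scale its values at 0 h were 8.85, 8.99 and 8.92 on KO arrays, against 8.53, 8.36 and 8.44 on WT arrays. At 1 h they were 6.46, 6.42 and 6.13 in KO cells and 5.33, 5.58 and 5.70 in WT cells. At 3 h they were 4.87, 4.97 and 4.73 in KO cells and 4.68, 4.68 and 4.67 in WT cells. The order of the levels was therefore KO 0 h, WT 0 h, KO 1 h, WT 1 h, KO 3 h and WT 3 h, and no group overlapped its neighbour in that order. The dimmest detected probes lay at 4.59 to 4.72, so the 3 h values sit at the bottom of the measurable range. All 6 arrays at 3 h still passed the detection threshold of 0.05, with detection p-values of 0.0224, 0.00855 and 0.0278 in KO and 0.0491, 0.0491 and 0.0449 in WT cells.

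**Figure D1:**
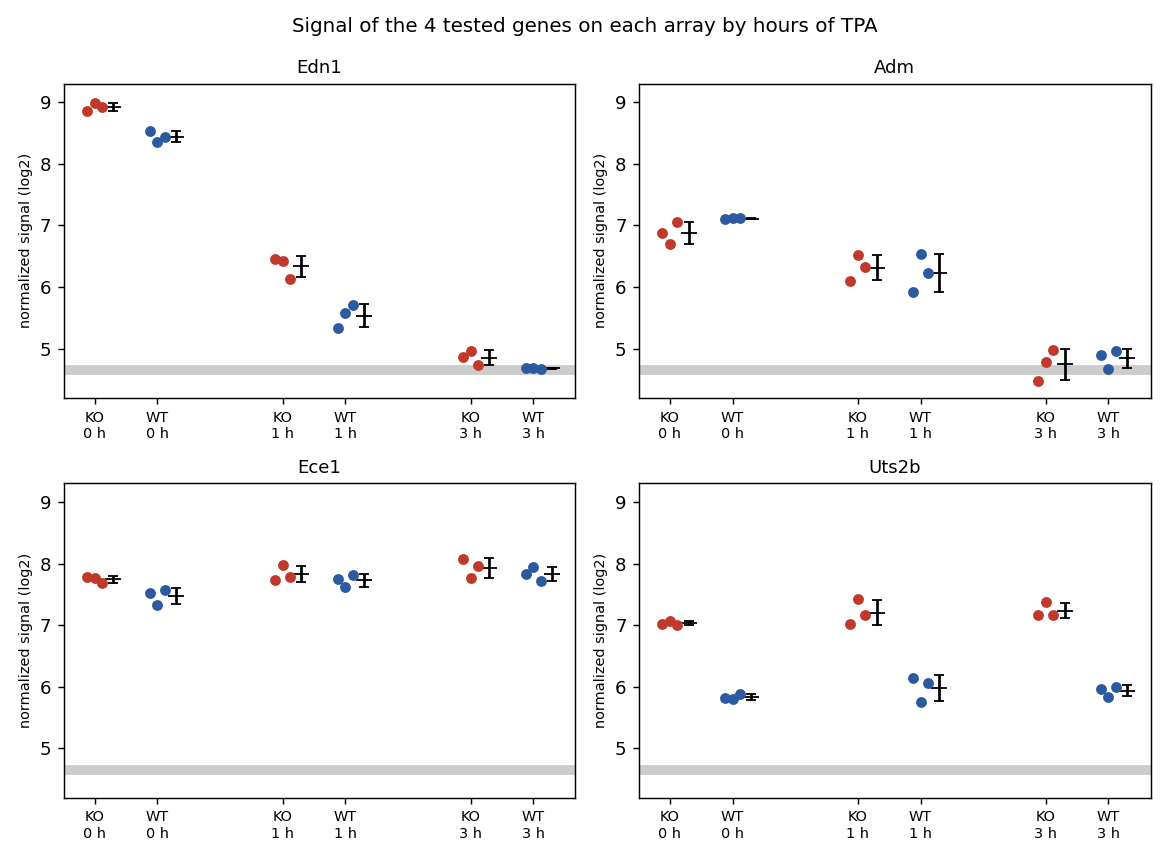
Normalized signal (log2) of Edn1, Adm, Ece1 and Uts2b by genotype and hours of TPA. Each dot is 1 array, with KO in red and WT in blue, the bars give the mean and SD of 3 arrays, and the grey band spans the dimmest detected probe of the 18 arrays (4.59 to 4.72). Edn1 and Adm reach the band at 3 h, and Uts2b has 2 separate levels by genotype.

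The Edn1 difference from 0 h was −2.58 in KO and −2.90 in WT cells at 1 h, which leaves 16.7% and 13.4% of the untreated signal. At 3 h it was −4.07 in KO and −3.76 in WT cells, or 5.97% and 7.37% of the untreated signal. The 1 h and 3 h percentages include the offset of 16 added to every signal, and would be lower without it. Between 1 h and 3 h the difference was −1.48 in KO and −0.86 in WT cells. The standard error of each of these values was 0.11. The 1 h and 3 h values of a genotype share the same untreated arrays. Edn1 was the lowest of all genes tested in each of the 4 comparisons with 0 h. The next values were those of the Ras-like gene Rasl11b at 1 h (−2.10 in KO and −1.71 in WT cells) and of the Cdc42 effector gene Cdc42ep3 at 3 h (−3.10 in KO and −3.33 in WT cells). Of 8 smooth muscle markers, 6 or 7 were detected per array, with Acta2 on all 18, Cnn1 on 8 and Synpo2 on 0. Their summed signal, with Acta2 the brightest gene (mean log2 14.06), was 56964 to 60244 at 3 h, against 60525 to 64583 at 0 h, in KO cells. In WT cells it was 52771 to 53770 at 3 h, against 57733 to 61197 at 0 h. Over the 7 tested markers the median 3 h difference was 0.09 in KO and −0.13 in WT cells. Limma called 1 higher and 1 lower in KO cells (18.4% of all genes called) and 1 lower in WT cells (16%). The part of these markers in the result was not tested.

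The size of the Edn1 fall depends on the background that is subtracted. Unnormalized signals at 0 h were 662.9, 540.4 and 524.2 in KO and 504.7, 570.7 and 554 in WT cells. They were 160.2, 147.8 and 133.5 in KO and 124.1, 130.9 and 134.4 in WT cells at 1 h, and 107.7, 118.7 and 105.5 in KO and 109.2, 106.7 and 109.7 in WT cells at 3 h. Treated and untreated arrays were far apart on this scale too, whereas KO and WT arrays overlapped at each time. Without background correction the Edn1 difference was −1.69 in KO and −1.61 in WT cells at 1 h, and −2.19 and −1.84 at 3 h.

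**Figure D2:**
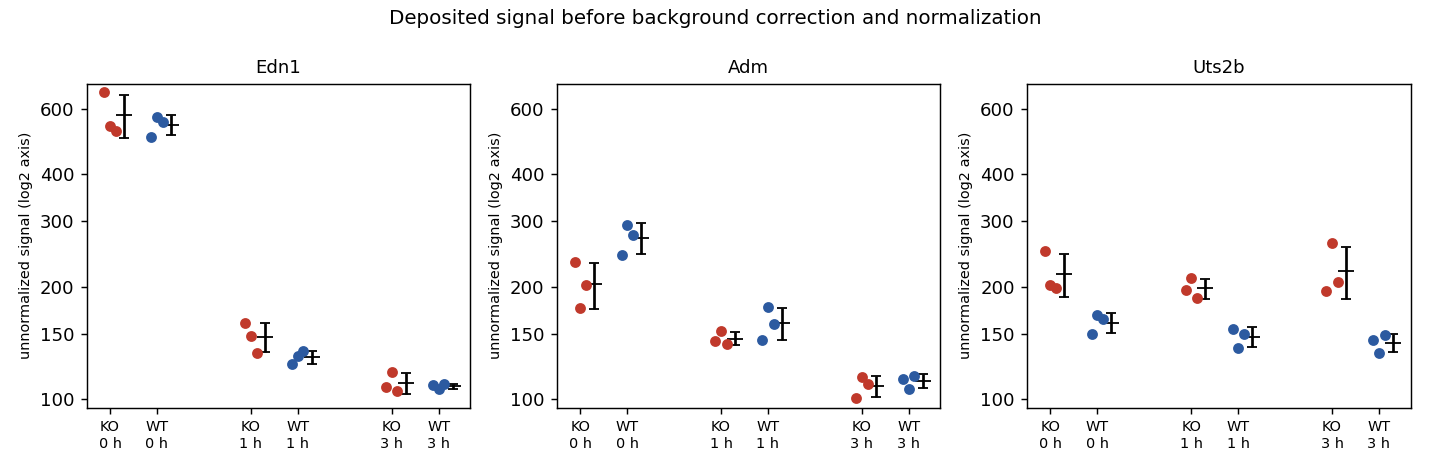
Deposited signal of Edn1, Adm and Uts2b before background correction and normalization, on a log2 axis, for each array (KO red, WT blue) with the mean and SD of 3 arrays. Edn1 is at 504.7 to 662.9 on untreated arrays and at 105.5 to 118.7 at 3 h, and Uts2b is higher on every KO array than on the WT arrays of the same time.

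Edn1 was also tested between the genotypes, which the stated choice did not use, although the members were chosen with earlier results known. At 0 h it was higher in KO than in WT cells by 0.48 (95% interval 0.26 to 0.70), a 1.39-fold difference, with a limma adjusted p of 0.0238. Edn1 was called there in a comparison in which 1.85% of all genes tested were called. That call rests on the scaling and on single arrays: with median scaling the difference was 0.17 (adjusted p = 0.411), and it was lost in 5 of 6 fits that left out 1 array (without WT arrays 2 or 3 or any of the KO arrays), with adjusted p-values of 0.0508 to 0.118. At 1 h Edn1 was higher in KO cells by 0.80 (0.57 to 1.02), or 1.74-fold, with an adjusted p of 1.84e-04, in a comparison with 2.20% of genes called. All 6 fits that left out 1 array kept this call, with values of 0.70 to 0.90 and adjusted p-values of 1.16e-04 to 0.0024. The 1 h difference was 0.56 with median scaling (adjusted p = 0.0188) and 0.31 without background correction (adjusted p = 0.00124). At 3 h the difference was 0.17 (−0.05 to 0.40) and was not called (adjusted p = 0.447), in a comparison with 4.97% of genes called.

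Whether the Edn1 response itself differed with genotype was tested as KO response minus WT response. At 1 h this difference was 0.32 (0.003 to 0.64, adjusted p = 0.84), in a comparison that called 0.0275% of genes. At 3 h it was −0.30 (−0.62 to 0.01, adjusted p = 0.517), with 0.358% of genes called. None of the 4 tested genes was called in either. The Edn1 difference at 3 h was called without background correction (−0.34, adjusted p = 0.0245) and in the authors' normalized values (−0.35, adjusted p = 0.0339), and the 1 h difference changed sign there (−0.08 and −0.07). At 3 h Edn1 lay near the detection limit in both genotypes (4.85 in KO and 4.68 in WT cells). A larger fall in KO cells therefore cannot be told apart from their higher Edn1 level at 0 h.

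Adm (chr7:110627657-110629820) fell with TPA in both genotypes. The stated reason for the choice names only Edn1 and Uts2b, but the members were chosen with earlier results of these data known. The adjusted p-values of Adm may therefore not be independent of that choice. At 0 h the normalized log2 values of Adm were 6.87, 6.69 and 7.05 in KO and 7.10, 7.11 and 7.12 in WT cells. At 1 h they were 6.10, 6.52 and 6.33 in KO and 5.93, 6.54 and 6.23 in WT cells, and at 3 h 4.47, 4.78 and 4.98 in KO and 4.90, 4.67 and 4.96 in WT cells. In each genotype the 3 times did not overlap, and at 3 h the probe was detected on only 2 of 3 arrays of either genotype.

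At 3 h Adm fell by 2.13 ± 0.15 in KO (SE, adjusted p = 1.05e-09) and fell by 2.26 ± 0.15 in WT cells (adjusted p = 6.04e-10). This left 22.9% and 20.8% of the untreated signal, with the added offset of 16 included in each value. Without background correction Adm fell by 0.78 in KO and fell by 0.89 in WT cells. In these comparisons 18.4% of all genes in KO and 16% in WT cells were called, and of the 4 tested members 2 were lower in each genotype, 1 of them Edn1, which the rule had used. At 1 h, where 5.41% of genes in KO and 3.38% in WT cells were called, Adm fell by 0.88 in WT cells (adjusted p = 8.99e-04). Its 1 h fall of 0.55 in KO cells (adjusted p = 0.0326) was lost without KO 0 h arrays 1 or 3 or KO 1 h arrays 1 or 3 (adjusted p-values of 0.0824 to 0.166) and without the detection filter (adjusted p = 0.0613). From 1 h to 3 h, with 13.9% of genes called in KO and 10.2% in WT cells, Adm fell by a further 1.57 in KO (adjusted p = 1.97e-07) and 1.39 in WT cells (adjusted p = 1.82e-06).

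Adm was not called between the genotypes at any time. The difference was −0.24 at 0 h (−0.55 to 0.08, adjusted p = 0.476), 0.08 at 1 h (−0.23 to 0.40) and −0.10 at 3 h (−0.41 to 0.21). At 0 h the KO arrays all lay below the WT arrays, and median scaling gave −0.55 (adjusted p = 0.0248). The KO response minus the WT response was 0.32 at 1 h (−0.12 to 0.77, adjusted p = 0.902), and it was 0.14 at 3 h (−0.30 to 0.58, adjusted p = 0.85). Over the 18 arrays Adm correlated with Edn1 at r = 0.875, given as a description of arrays that share the same times and cultures.

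Uts2b (chr16:27353322-27370239) was chosen for its difference between the genotypes. Its normalized log2 values at 0 h were 7.03, 7.07 and 7.01 in KO and 5.81, 5.80 and 5.89 in WT cells. At 1 h they were 7.02, 7.42 and 7.17 in KO and 6.15, 5.75 and 6.06 in WT cells, and at 3 h 7.17, 7.37 and 7.17 in KO and 5.97, 5.84 and 6.00 in WT cells. No KO array overlapped any WT array at any time, and the unnormalized signals of 187.3 to 261.5 in KO and 133.1 to 168.5 in WT cells did not overlap either. KO cells had 2.30-fold the WT signal at 0 h, 2.32-fold at 1 h and 2.46-fold at 3 h, or 1.20, 1.22 and 1.30 in log2 units. These values chose the gene and carry no test.

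Among all genes tested, Uts2b was rank 2 from the highest in KO against WT cells at 0 h, rank 5 at 1 h and rank 13 at 3 h. At 0 h it stood between Serpinb2, the plasminogen activator inhibitor PAI-2 gene (1.24), and Cemip, which encodes a hyaluronan-binding protein (1.11). At 1 h the same genes were its neighbours (1.25 and 1.17), and at 3 h these were the growth factor gene Gdnf (1.31) and the AP-1 subunit gene Fos (1.28). Without background correction the Uts2b differences were 0.56, 0.60 and 0.64.

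The TPA responses of Uts2b, which the rule did not use, were not called. In KO cells the difference from 0 h was 0.17 at 1 h (−0.07 to 0.40, adjusted p = 0.529), and it was 0.20 at 3 h (−0.03 to 0.44, adjusted p = 0.251). In WT cells it was 0.15 at 1 h (−0.08 to 0.39, adjusted p = 0.646), and it was 0.10 at 3 h (−0.13 to 0.34, adjusted p = 0.601). The KO response minus the WT response was 0.02 at 1 h (−0.32 to 0.35, adjusted p = 0.995), and it was 0.10 at 3 h (−0.23 to 0.43, adjusted p = 0.857). Its receptor gene Uts2r and the sister ligand gene Uts2 were each detected on 0 of 18 arrays.

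**Figure D3:**
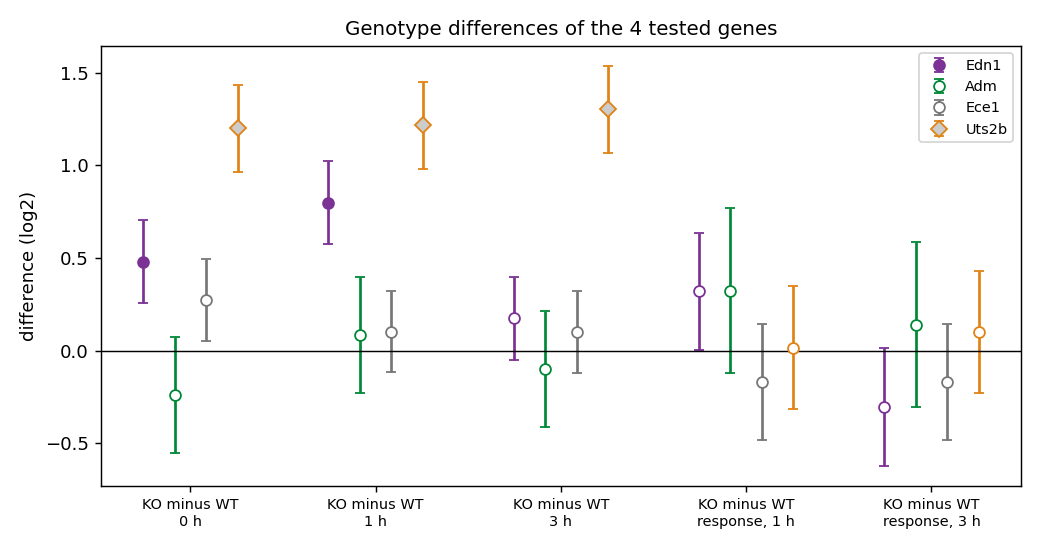
Differences between the genotypes (log2, with 95% intervals) for the 4 tested genes: KO minus WT at each time, and KO response to TPA minus WT response. Filled circles passed the adjusted threshold, open circles did not, and the grey diamonds are the Uts2b differences that chose the gene. Edn1 is higher in KO cells by 0.48 at 0 h and 0.80 at 1 h, and no response difference passed.

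Ece1 (chr4:137862237-137965229) had a steady signal in every group. Its 3 arrays averaged 7.74 ± 0.05 in KO and 7.47 ± 0.13 in WT cells at 0 h (SD, log2), 7.83 ± 0.13 and 7.72 ± 0.10 at 1 h, and 7.93 ± 0.16 and 7.83 ± 0.12 at 3 h. Of its 11 comparisons 1 was called, a rise of 0.36 in WT cells at 3 h (adjusted p = 0.0228). That call was lost without WT 0 h array 2 or WT 3 h arrays 1 or 2 (adjusted p-values of 0.0619 to 0.118) and with the mean of its probes (0.30, adjusted p = 0.0586), and median scaling turned the difference to −0.07. The other Ece1 probe gave 0.24 in this comparison (adjusted p = 0.389) and was not called in any. In KO cells the 3 h difference was 0.19 (−0.03 to 0.41, adjusted p = 0.254). KO minus WT was 0.27 at 0 h (0.05 to 0.49, adjusted p = 0.214), 0.10 at 1 h and 0.10 at 3 h.

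Ednrb (chr14:103814615-103844508) had 3 probes. Of these, 1 was detected on 1 of 18 arrays, a WT array at 3 h with a signal of 111.1, and the others were detected on 0 arrays. The gene therefore missed the detection filter and was not tested. With Ednra not analysed here, no endothelin receptor level is given.

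Of 11 other endothelin pathway genes, all with a probe, 6 were tested and limma called 0 in any of the 11 comparisons, which called between 0.0275% and 18.4% of all genes. The convertase gene Furin averaged 10.87 in KO and 10.83 in WT cells at 0 h, and its 3 h difference in KO cells was 0.22 (adjusted p = 0.125). Ece2, a relative of Ece1, differed by 0.17 in KO and 0.19 in WT cells at 3 h (adjusted p = 0.527 and 0.441). The ligand gene Edn2 was detected on 8 of 18 arrays and the ligand gene Edn3 on 1. The median 3 h difference over the 6 tested genes was 0.12 in KO and −0.01 in WT cells, against −0.02 and 0.01 over all genes.

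Downstream of the receptors, 11 of 13 listed genes for Gq/11 and G12/13 coupling were tested. At 3 h 2 rose and 1 fell in KO cells, and 2 rose in WT cells, in comparisons that called 18.4% of all genes in KO and 16% in WT cells. Gna13, which encodes the G protein subunit alpha 13, rose by 0.92 ± 0.10 in KO (adjusted p = 6.19e-07) and 0.50 in WT cells (adjusted p = 0.00117). The Gna13 rise in WT cells was lost with median scaling (0.07, adjusted p = 0.721), another Gna13 probe was not called in either genotype (0.25 and 0.20), and the difference between the responses was 0.42 (adjusted p = 0.308). Itpr3, an inositol trisphosphate receptor gene, rose by 0.33 in KO (adjusted p = 0.0474) and 0.57 in WT cells (adjusted p = 0.00132). The Itpr3 call in KO cells was lost in 5 of 6 fits without 1 array (all but the one without KO 0 h array 2, adjusted p-values of 0.0618 to 0.272), and median scaling ended both (0.18 and 0.16). Gnaq fell by 0.29 in KO cells (adjusted p = 0.0243), a call lost without KO 0 h arrays 1 or 2 or KO 3 h arrays 1 or 2 (0.0512 to 0.0908) and not called on either of its other probes (0.07 and −0.31). The median over the 11 tested genes at 3 h was −0.09 in KO and −0.03 in WT cells.

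On the adrenomedullin side, the ligand's fall was accompanied by a rise of an accessory protein gene. Of 11 listed genes 10 had a probe and 5 were tested. Over all genes 5.41% in KO and 3.38% in WT cells were called at 1 h, and 18.4% and 16% at 3 h. Ramp3 was the 1 gene called higher in both genotypes at 1 h and at 3 h. It averaged 5.80 ± 0.18 at 0 h, 6.36 ± 0.09 at 1 h and 7.48 ± 0.21 at 3 h in KO cells, and 5.72 ± 0.10, 6.42 ± 0.25 and 7.27 ± 0.09 in WT cells (SD, n = 3 arrays). At 3 h it rose by 1.68 in KO (adjusted p = 3.13e-09) and by 1.55 in WT cells (adjusted p = 1.71e-08), and both of its other probes were called in the same direction. At 1 h it rose by 0.55 in KO (adjusted p = 0.0103) and by 0.70 in WT cells (adjusted p = 0.00175). Of its other probes, 1 was also called at 1 h and 1 was not (0.24 in KO and 0.07 in WT cells, adjusted p = 0.357 and 0.884). The 1 h rise in KO cells was lost with median scaling (0.30, adjusted p = 0.139) and without KO 0 h array 3 or KO 1 h array 1 (adjusted p = 0.076 and 0.0552).

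The receptor genes that RAMP3 pairs with, Calcrl and Calcr, were detected on 0 of 18 arrays, as was Ackr3, another receptor that binds adrenomedullin. Ramp1, a second accessory protein gene, averaged 6.345 in KO and 5.873 in WT cells at 0 h, and 6.29 and 6.03 at 1 h. It was not called between the genotypes at those times. At 3 h it was higher in KO cells by 0.49 (6.24 ± 0.23 in KO and 5.75 ± 0.23 in WT cells, adjusted p = 0.0314), in a comparison with 4.97% of genes called. This Ramp1 call was lost without WT 3 h arrays 2 or 3 or KO 3 h arrays 1 or 3 (adjusted p-values of 0.083 to 0.179), with median scaling (0.44, adjusted p = 0.125) and without background correction (0.19, adjusted p = 0.0511). Ramp2, Crcp and Pam, whose enzyme amidates the mature peptide, were not called in any comparison.

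**Figure D4:**
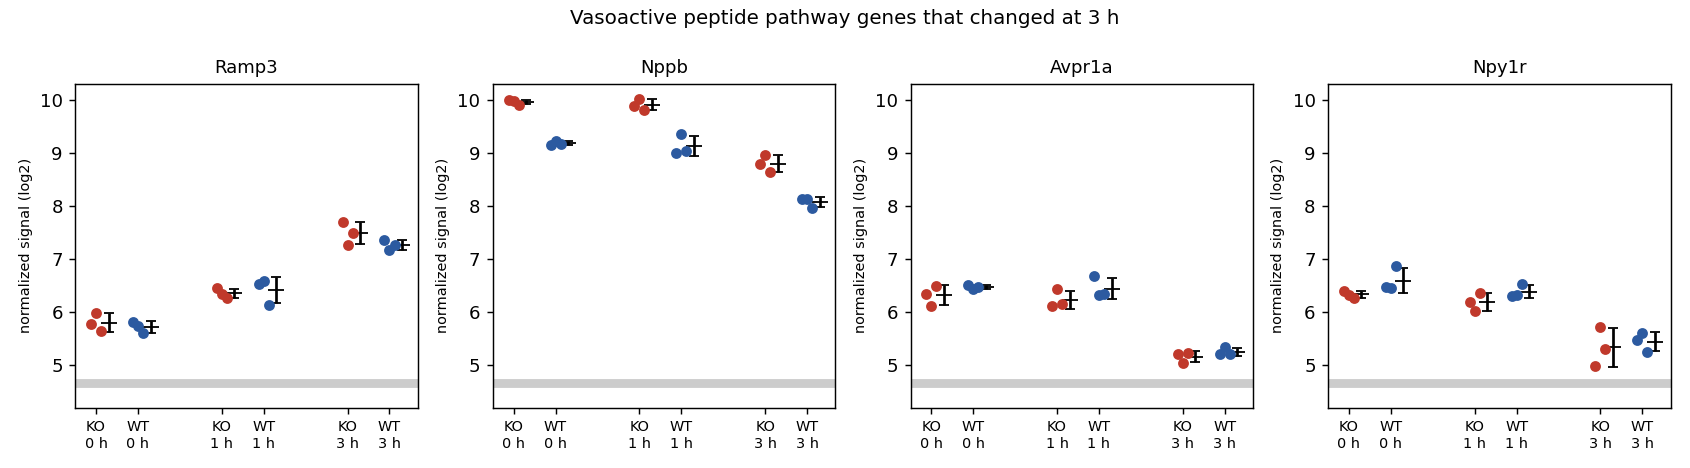
Normalized signal (log2) of Ramp3, Nppb, Avpr1a and Npy1r on each array (KO red, WT blue), with the mean and SD of 3 arrays, and a grey band at the dimmest detected probes (4.59 to 4.72). Ramp3 climbs with TPA, the other 3 genes are lower at 3 h, and Nppb is higher in KO than in WT cells at all 3 times.

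Natriuretic peptide genes held 1 called gene of 5 tested. Over all genes 18.4% in KO and 16% in WT cells were called at 3 h, and 1.85%, 2.20% and 4.97% between the genotypes at 0, 1 and 3 h. Nppb, which encodes the vasodilator brain natriuretic peptide, averaged 9.95 ± 0.04 in KO and 9.18 ± 0.04 in WT cells at 0 h, 9.90 ± 0.11 and 9.13 ± 0.19 at 1 h, and 8.79 ± 0.16 and 8.08 ± 0.10 at 3 h. The groups of the 2 genotypes did not overlap at any time. Nppb was higher in KO cells by 0.77, 0.78 and 0.72 at 0, 1 and 3 h, with adjusted p-values of 2.24e-04, 1.87e-04 and 2.37e-04, and every fit that left out 1 array kept these calls (0.64 to 0.89). It fell by 1.16 in KO (adjusted p = 4.26e-08) and 1.10 in WT cells (adjusted p = 1.25e-07) at 3 h. KO response minus WT response was −0.05 (adjusted p = 0.93). Nppa and the receptor genes Npr1, Npr2 and Npr3 were not called in any comparison.

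Among other vasoactive peptide genes 9 of 27 were tested. At 3 h 1 rose and 2 fell in KO cells (18.4% called over all genes), and 2 fell in WT cells (16%). Avpr1a, a vasopressin receptor gene, fell at 3 h by 1.15 in KO (adjusted p = 2.05e-07) and 1.22 in WT cells (adjusted p = 1.31e-07), although a second Avpr1a probe was not called (−0.30 and −0.23). Npy1r, a neuropeptide Y receptor gene, fell by 1.00 in KO (adjusted p = 6.43e-05) and 1.15 in WT cells (adjusted p = 1.51e-05). Npy itself rose by 0.51 in KO cells at 3 h (5.55 ± 0.03, against 5.03 ± 0.15 at 0 h, adjusted p = 0.00342). In WT cells Npy averaged 4.816 at 0 h and 5.155 at 3 h, a rise that was not called. No gene of this list was called in a response difference between the genotypes. Oxt was lower at 3 h than at 1 h in KO cells (adjusted p = 0.0453), where it was detected on 3 of 3 arrays at 1 h, at least 1.14-fold higher than at 3 h, when it was detected on 0. The Oxt call was lost in 5 of 6 fits without 1 array (all but the one without KO 3 h array 2, 0.056 to 0.152).

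Of 16 angiotensin and kinin genes 4 were tested and only Bdkrb1, the bradykinin B1 receptor gene, was called, in KO cells, where 5.41% of all genes were called at 1 h and 18.4% at 3 h. It was not well above background on any KO array at 0 h and was detected on 3 of 3 arrays at 1 h and at 3 h, at least 1.24-fold and 1.11-fold higher (adjusted p = 0.00323 and 0.0249). In WT cells it was detected on 1 array at 1 h and on 0 at 0 h and 3 h. Bdkrb1 therefore passed the detection filter through the treated KO groups where it was high, and its 2 calls are not independent of that filter. Neither was called without background correction (0.12 and 0.08, adjusted p = 0.065 and 0.147) or with median scaling (adjusted p = 0.0545 and 0.162), and the 3 h call was also lost without KO 0 h arrays 1 or 3 or KO 3 h array 1 (0.0646 to 0.131). Agt, Ace, Agtr1a and Agtr1b, genes of the angiotensin system, were detected on 0 of 18 arrays. The median 3 h difference in KO and in WT cells was 0.04 and 0.10 over the 4 tested genes of this list, −0.11 and 0.16 over the 9 other vasoactive peptide genes, −0.09 and 0.07 over the 5 natriuretic peptide genes, and −0.04 and 0.09 over the 5 adrenomedullin pathway genes.

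The 5 genes whose pattern was most like that of Edn1 over the 18 arrays were Rnd3 (Pearson r = 0.986), Gadd45g (0.985), Id4 (0.962), Lpar6 (0.945) and Tent5a (0.936). Rnd3 encodes a RhoA antagonist, Gadd45g a growth arrest and stress protein and Id4 an inhibitor of helix-loop-helix factors. Rnd3 averaged 10.04 in KO and 9.82 in WT cells at 0 h, 8.67 and 8.35 at 1 h, and 7.56 and 7.68 at 3 h. The genes most like Uts2b were Lce1f (r = 0.948), H4c8 (0.936), Igfbp2 (0.933), Ivl (0.931) and Cotl1 (0.931). Lce1f and Ivl encode skin proteins found in the cornified envelope, H4c8 a histone H4 and Igfbp2 an insulin-like growth factor binding protein. Igfbp2 averaged 6.41 in KO and 5.50 in WT cells at 0 h, 6.40 and 5.72 at 1 h, and 6.36 and 5.48 at 3 h. The arrays fall into 6 groups, so these correlations largely restate which genes share the time or genotype pattern, and no p-value is attached.

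**Figure D5:**
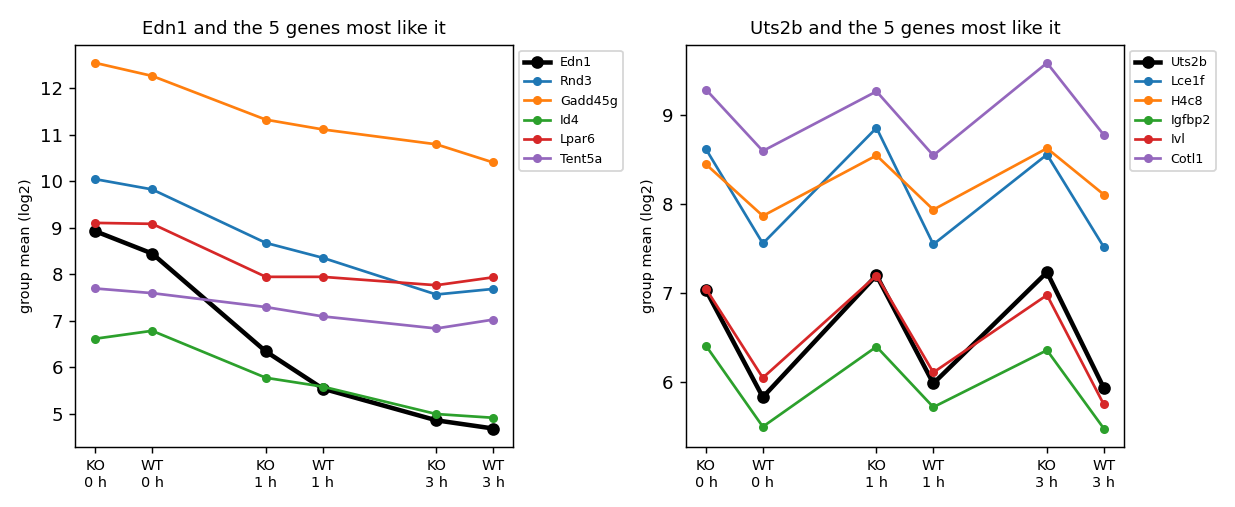
Group means (log2, 3 arrays each) of Edn1 and of Uts2b, in black, with the 5 genes that correlate best with each over the 18 arrays. Lines join the groups only to guide the eye. The genes beside Edn1 are lower at 1 h and 3 h than at 0 h in both genotypes, and those beside Uts2b are higher in KO than in WT cells at every time.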

How the data were processed

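Bead intensity was deposited unnormalized, per the file headers, in a table that pairs it with the scanner software's detection p-value. That deposited p-value moves in steps of 1 in 936. The authors also deposited normalized log2 values, whose ranks match the intensities (rank correlation 1), and these served as an alternative. The function neqc of limma 3.58.1 (R 4.3.3) subtracted background (normexp), added an offset of 16, quantile normalized the arrays and took log2. Percentages and fold values were taken with this offset included, which makes differences smaller, most of all near background. Probes detected at p below 0.05 on at least 3 of 18 arrays were kept (20239), and the brightest kept probe stood for each of 10902 genes, of which 4238 had several. Of 45281 probes, 34885 carried 1 gene symbol, 18 several and 10378 none.

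A model of 6 group means was fitted to all arrays (lmFit and eBayes, 12 residual degrees of freedom) for 11 comparisons. A gene was called at a Benjamini-Hochberg adjusted p below 0.05 over all genes tested. The fit was tested on simulated data with known answers. Those values were drawn independently for each array, with no detection floor, so they cannot show how calls near background behave. Intervals are 95% and not adjusted. The number of arrays limits the precision.

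The members and lists were chosen with earlier results of these data known. Named genes were the 6 members, Dusp5, up to 4 called genes of each list and the 5 genes best correlated with Edn1 and with Uts2b. Neighbours in rank, Oxt and the marker, uncalled and undetected list genes were named after their values were seen. Promoter sequences and coordinates are RefSeq's (GRCm38.p6). Alternatives were no background correction, the authors' normalized values, median scaling, other detection filters, the mean of kept probes, only the compared groups, a replicate block, each array left out in turn and, chosen after seeing the data, scaling to the tested genes.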

Additional observations from a re-analysis of the deposited data

How the results depend on the processing

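Of 396 member differences refitted under a whole-data alternative, 348 kept their direction and call or moved by under 1 SD, 3 lost and 3 gained a call, 15 changed sign and 27 moved by more. Of 312 refits without 1 array, 291 kept both, 12 lost the call and 9 changed sign. Of the called genes of the other lists, 29 of 303 such refits and 26 of 204 without 1 array lost the call. With median scaling the median difference over all genes was −0.23 (KO 1 h), −0.24 (WT 1 h), −0.12 (KO 3 h), −0.31 (WT 3 h), −0.22 (KO minus WT at 0 h), −0.22 (at 1 h) and 0.19 (3 h response difference), against −0.022, −0.006, −0.018, 0.008, 0.007, −0.011 and −0.021 in the values reported. This scaling gave 1384 called genes for KO 1 h (9.10% higher), 1381 for WT 1 h (8.11%), 4821 for WT 3 h (5.39%), 964 for KO 3 h minus 1 h (74.8%), 653 for WT 3 h minus 1 h (33.2%), 1548, 889 and 179 for KO minus WT at 0, 1 and 3 h (2.0%, 2.36% and 54.2%), and 1 for the 1 h response difference. The main counts were 590 (47.3% higher), 369 (55.6%), 1744 (48.8%), 1519 (53.7%), 1115 (53.1%), then 202, 240 and 542 (52.0%, 49.6% and 49.1%), and 3 and 39 for the response differences at 1 h and 3 h. Scaling to the tested genes gave 642 for WT 1 h (76.6%), 2971 for WT 3 h (70.8%), 530 for KO minus WT at 0 h (74.5%), and 1 and 25 for the response differences. KO minus WT at 0 h had 373 calls without background correction, 381 in the authors' values and 129 from only the compared groups, which gave 90 at 1 h, 281 at 3 h and 24 for the 3 h response difference. The response differences had 5 calls at 1 h both without background correction and in the authors' values, and 59 at 3 h in the latter. Without 1 array the counts were 76 to 308, 123 to 189 and 348 to 454 for KO minus WT at 0, 1 and 3 h, 3 to 4 and 19 to 40 for the response differences, 414 to 503 and 267 to 356 at 1 h, 1558 to 1766 and 1227 to 1789 at 3 h, and 1203 to 1375 and 790 to 999 from 1 h to 3 h, in KO and in WT cells. Sign changes with median scaling were Adm at −0.17 (KO minus WT, 1 h), Ece1 at −0.20 (KO 1 h), −0.054 (WT 1 h), −0.073 (WT 3 h), −0.019 (WT 3 h minus 1 h), −0.056 and −0.20 (KO minus WT, 0 h and 1 h) and 0.11 (3 h response difference), and Uts2b at −0.12 (KO 1 h), −0.11 (WT 1 h), −0.25 (WT 3 h) and −0.003 (1 h response difference, −0.031 with scaling to the tested genes). The Edn1 1 h response difference was −0.080 without background correction and −0.068 in the authors' values. Without 1 array, Adm ranged over −0.067 to 0.24 and −0.21 to 0.037 (KO minus WT, 1 h and 3 h), and Uts2b over −0.056 to 0.14 and −0.17 to 0.031 (3 h minus 1 h, KO and WT) and −0.10 to 0.11 (1 h response difference). The cause was not tested. Same-numbered arrays correlated in their deviations at −0.07 to 0.43 (45 pairs, median 0.04). Arrays of different number did so at −0.38 to 0.32 (90 pairs, median −0.03), and 15 of 18 arrays correlated best with their own number. The labels do not say whether the numbers pair arrays across groups, and the main fit did not take them as pairs. With a replicate block the calls were 260, 278 and 599 for KO minus WT at 0, 1 and 3 h and no member call changed. The block ended the Itpr3 call in KO cells at 3 h (adjusted p = 0.0512). The labels and file headers name no slide, so no fit with a slide block was made. Signals near background limit Edn1 and Adm at 3 h.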
